A study of Homo sapiens with 15 samples.

Results

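A set of 10 genes that mark or maintain primed human pluripotency was followed as embryonic stem cells were turned into definitive endoderm, the germ layer of gut, liver and pancreas. The genes were chosen by name: POU5F1, NANOG, PRDM14, FOXD3, DPPA4, LIN28A, LIN28B, L1TD1, TERF1 and SALL4. All 10 had a row among the 23346 gene symbols of the count table, and all 10 were among the 17401 genes with enough counts to be tested. The cells were H9, an established human embryonic stem cell line. Day 0 cells were undifferentiated and kept in E8 medium. Cells of days 1, 2, 3 and 4 had been moved to Advanced RPMI 1640 with activin A, a ligand that stands in for Nodal, and with CHIR99021, an inhibitor of GSK3 that switches on Wnt signalling, on the first day and activin A alone from then on. Day and medium therefore changed together between day 0 and day 1 and cannot be told apart there. Each of the 5 days had 3 bulk RNA-seq libraries of polyA-selected RNA, numbered 1, 2 and 4, 15 libraries of a single line in all. Whether the libraries of a day stem from separate cultures is not labelled, so p-values here cover only the variation among these libraries, which may be technical.

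Pluripotent cells of the primed kind resemble the epiblast shortly before gastrulation. POU5F1 (also called OCT4) and NANOG are DNA-binding proteins that, with SOX2, occupy each other's regulatory regions and those of many other genes active in these cells. Activin and Nodal signalling sustains NANOG in this state, and Wnt and activin together carry the cells through a primitive streak stage, which the embryo passes before endoderm forms. The other genes act around this core. PRDM14, FOXD3 and SALL4 are transcription factors with repressor partners, DPPA4 is a chromatin-bound protein, LIN28A, LIN28B and L1TD1 bind RNA, and TERF1 belongs to the shelterin complex that caps telomeres.

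The promoters of NANOG, FOXD3 and LIN28B are shown because these genes span the range of what follows, with a partial loss, the deepest loss and no loss that passed the test on any day. They are RefSeq sequences of build GRCh38.p14, from 250 bases before to 50 bases after the annotated start, read in the direction of the gene. They lie at chr12:7789152-7789451 on the plus strand for NANOG, at chr1:63322317-63322616 on the plus strand for FOXD3 and at chr6:104940715-104941014 on the plus strand for LIN28B. Capitals mark the octamer core TTTGCAT, read by POU factors such as POU5F1, and the SOX core ACAANG, on either strand.
NANOG: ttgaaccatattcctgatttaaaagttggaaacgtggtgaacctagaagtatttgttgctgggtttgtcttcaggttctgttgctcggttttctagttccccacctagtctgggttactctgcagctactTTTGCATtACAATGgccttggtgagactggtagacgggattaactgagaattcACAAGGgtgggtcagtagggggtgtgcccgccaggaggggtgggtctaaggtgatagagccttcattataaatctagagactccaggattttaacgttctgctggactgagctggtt
FOXD3: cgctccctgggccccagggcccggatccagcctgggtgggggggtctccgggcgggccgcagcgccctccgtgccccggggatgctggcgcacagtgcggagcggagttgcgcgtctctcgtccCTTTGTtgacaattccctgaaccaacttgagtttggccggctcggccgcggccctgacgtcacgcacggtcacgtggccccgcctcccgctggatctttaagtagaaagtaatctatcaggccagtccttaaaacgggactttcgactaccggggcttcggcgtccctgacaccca
LIN28B: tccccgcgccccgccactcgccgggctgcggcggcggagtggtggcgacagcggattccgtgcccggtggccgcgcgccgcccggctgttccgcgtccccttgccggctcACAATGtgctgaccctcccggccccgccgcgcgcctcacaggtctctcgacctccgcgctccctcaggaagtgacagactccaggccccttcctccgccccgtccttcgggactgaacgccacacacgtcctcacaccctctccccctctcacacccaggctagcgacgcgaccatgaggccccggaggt
The NANOG promoter held an octamer core that began 120 bases before the start and, after 1 base, a SOX core. That arrangement, read on both strands, was found in 4 of the 35116 promoters in the RefSeq table, or 0.0114%. An octamer core anywhere in the window was found in 4.46% of promoters and a SOX core in 35.5%. DPPA4 and L1TD1 also matched the table. Of these 5 genes, 1 held the octamer core and 4 the SOX core, and none held the TCF core CTTTGAT (2.62% of promoters), the SMAD box GTCTAGAC (0.202%) or the forkhead core TGTTTAC (3.42%). All motifs were searched on both strands, and none contains another. GC content was 46.7% for NANOG and 45.3% for DPPA4, against 58.0% for L1TD1, 66.3% for FOXD3 and 73.0% for LIN28B, with a median of 58.7% over all promoters. A match describes letters in this window and is not a measured binding site. The promoters of POU5F1, PRDM14, LIN28A, TERF1 and SALL4 were not matched by name.

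Seen over the whole course, 8 of the 10 genes changed and 2, LIN28B and SALL4, did not pass the test. Values are given as CPM, the count of a gene scaled to a common library size by the TMM method, and tests are edgeR's quasi-likelihood test with p-values adjusted by the Benjamini-Hochberg method over all 17401 genes and called under 0.05. In the joint test of the 5 days, the 8 genes compare with 37.3% of all genes tested. Against day 0, 5 of the 10 were lower on day 1, 7 on day 2, 7 on day 3 and 8 on day 4, and none was higher on any day. Of all genes tested, 4.88% were lower and 5.49% higher on day 1, 9.16% and 11.6% on day 2, 16.0% and 17.9% on day 3, and 16.2% and 18.0% on day 4. The median log2 fold change of the 10 genes was -1.53, -2.22, -2.47 and -2.86 on days 1 to 4, while that of all genes tested lay between -0.04 and -0.02. All 4 comparisons share the 3 day 0 libraries. In bulk RNA, fewer cells that express a gene and less of its RNA in each cell cannot be told apart.

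**Figure D1:**
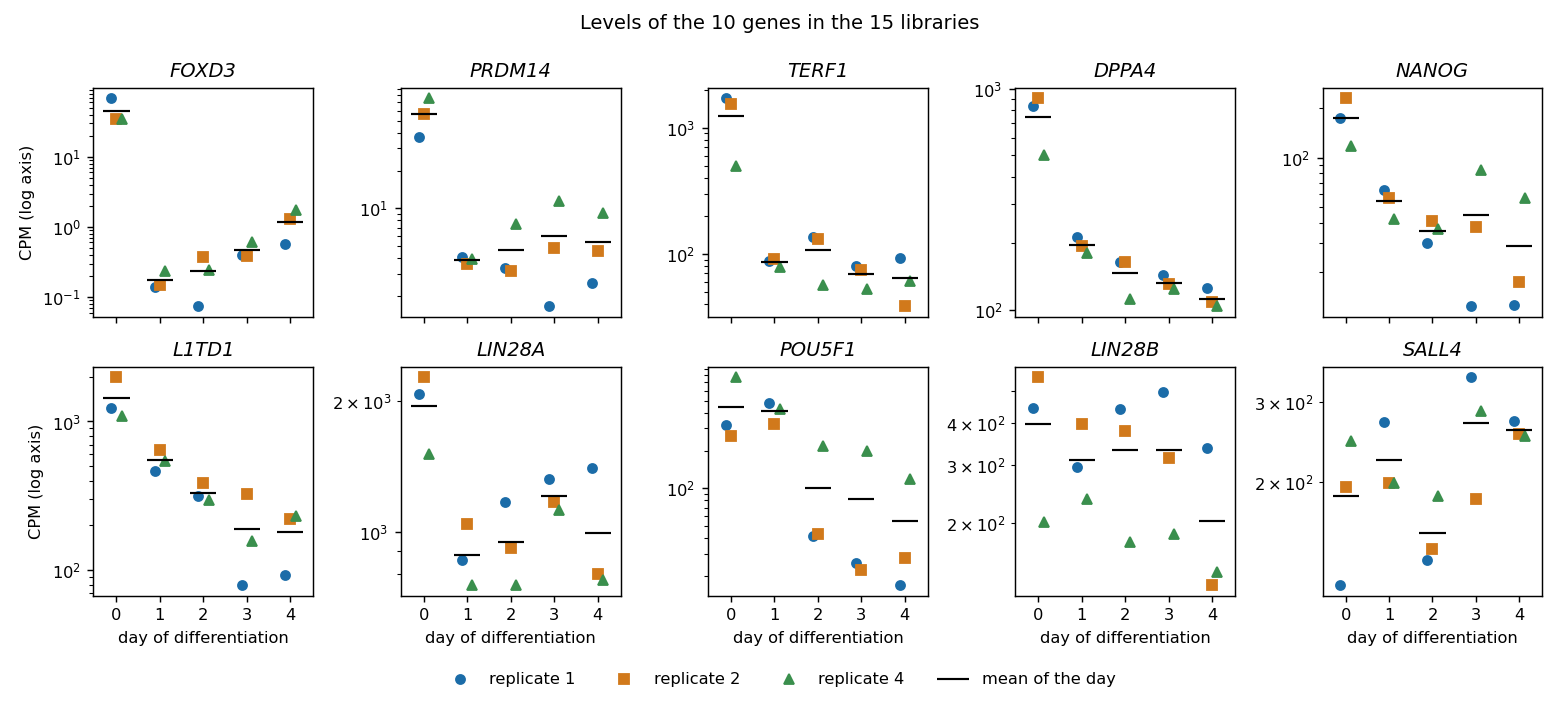
CPM on a log axis (vertical, each panel on its own scale) against day of differentiation (horizontal) for each gene, with a symbol per replicate number and a bar at the mean of the 3 libraries of a day. FOXD3, PRDM14 and TERF1 lie far below their day 0 libraries in every later library, POU5F1 separates from day 0 only from day 2, LIN28B overlaps day 0 throughout and SALL4 does so on days 1 to 3.

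In the edgeR fit with a mean per day, POU5F1 was not called on day 1 or day 2 and was called lower on days 3 and 4. Replicates 1, 2 and 4 gave 319, 262 and 765 CPM on day 0, 480, 324 and 430 on day 1, 41.7, 43.4 and 215 on day 2, 25.2, 22.5 and 199 on day 3, and 16.8, 28.0 and 119 on day 4. The day 1 libraries lay inside the day 0 range, and from day 2 every library lay below all 3 of day 0, with replicate 4 the highest of each of those days. On day 1 the POU5F1 mean was 91.7% ± 17.8 of the day 0 mean (SD, n = 3). The log2 fold change was -0.12 ± 0.86 (SE, edgeR adjusted p = 0.953). With an error this wide, the test does not show that POU5F1 held its level. The log2 fold change reached -2.16 ± 0.90 on day 2 (adjusted p = 0.102, not called), -2.45 ± 0.91 on day 3 (0.0483) and -3.04 ± 0.93 on day 4 (0.0200). The day 2 mean was 22.3% ± 22.2 of day 0, and the day 4 mean 12.2% ± 12.5.

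The POU5F1 calls depended on which libraries and settings were in the fit. With the replicate number as a block, POU5F1 was called lower on day 2, with values in the closing section. Day 2 against day 1 gave -2.04 ± 0.90 with an adjusted p of 0.188 in edgeR. With replicates 1 and 2 of each day only, the same comparison gave -3.24 with an adjusted p of 7.58e-04, and day 2 against day 0 gave -2.77 with 5.41e-04. That subset was chosen after the data were seen. It drops replicate 4, the highest POU5F1 library of days 2, 3 and 4, so its p-values cannot be weighed as those of a planned test. Day 2 against day 0 was also called without replicate 4 of day 2 (-3.40, adjusted p = 0.0351) and without replicate 4 of day 3 (0.0496). The day 3 call, close to the threshold, was lost without any of 11 of the 15 libraries, with adjusted p up to 0.165 without replicate 4 of day 0. It was also lost in DESeq2 (0.0549) and with DESeq2's size factors in edgeR (0.0539). It held without replicate 4 of day 2, 3 or 4 and without replicate 1 of day 4. The day 4 call was lost without replicate 4 of day 0 (-2.33, 0.0715), without replicate 1 of day 4 (0.0643) and without replicate 2 of day 4 (0.0924). Without replicate 4 of day 3 the day 3 value was -4.21 and without replicate 4 of day 4 the day 4 value was -4.31. The day 4 mean as a percent of day 0 ran from 4.995% without replicate 4 of day 4 to 18.8% without replicate 4 of day 0. POU5F1 has processed copies elsewhere in the genome, and the counts of POU5F1B, POU5F1P3 and POU5F1P4 came to between 1.81% and 5.48% of the POU5F1 count in each library. How the counting shared reads among them is not given in the sources used here. Reference annotation (GENCODE) also names 9 pseudogenes after NANOG, 5 each after TERF1 and SALL4 and 2 after LIN28A, which were not analysed here, so the levels of these genes carry the same uncertainty.

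NANOG, the homeodomain factor sustained by activin signalling, lay below all of day 0 in every library on day 1 but was not called then. On days 1 to 4, 14.1%, 16.4%, 19.6% and 19.5% of all genes tested lay below day 0 in this way. These shares apply to the other genes as well. The share that did so on every later day at once is not given here. Its libraries gave 174, 229 and 118 CPM on day 0, 63.7, 56.7 and 42.5 on day 1, 30.0, 40.8 and 36.6 on day 2, 12.4, 37.9 and 83.7 on day 3, and 12.6, 17.5 and 56.6 on day 4. No later library reached the lowest of day 0, but the spread widened on days 3 and 4, where replicate 4 was highest and replicate 1 lowest. Against day 0 the log2 fold change was -1.68 ± 0.59 on day 1 (edgeR adjusted p = 0.0868, not called), -2.28 ± 0.60 on day 2 (0.0143), -1.96 ± 0.60 on day 3 (0.0196) and -2.59 ± 0.61 on day 4 (0.00460). DESeq2 called NANOG on day 1 as well (adjusted p = 0.0325). The day 2 call was lost without replicate 2 of day 0 or replicate 1 or 2 of day 2 (adjusted p 0.0502 to 0.0637). The day 3 call was lost without replicate 1 or 2 of either day 0 or day 3 (0.0512 to 0.0766), and the day 4 call held without any single library. On day 4 NANOG stood at 16.7% ± 13.9 of its day 0 mean, and at 8.69% without replicate 4 of day 4, where the log2 fold change was -3.50. On day 3 it was -2.76 without replicate 4 of that day.

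SALL4, a zinc finger factor that recruits the NuRD deacetylase complex, showed no call in any comparison. Its libraries gave 118, 195 and 246 CPM on day 0, 272, 199 and 199 on day 1, 134, 142 and 187 on day 2, 340, 183 and 287 on day 3, and 272, 255 and 252 on day 4. Days 1, 2 and 3 overlapped the wide day 0 range, and day 4 lay in a narrow band above all 3 of day 0. The share of all genes that lay above day 0 in this way is not given here, so that separation cannot be weighed. The log2 fold change was 0.26 ± 0.30 on day 1 (edgeR adjusted p = 0.648), -0.27 ± 0.30 on day 2 (0.574), 0.54 ± 0.30 on day 3 (0.185) and 0.48 ± 0.30 on day 4 (0.232). Day 3 against day 2 gave 0.81 ± 0.30, with an unadjusted p of 0.0176 and an adjusted p of 0.229. These tests do not show that SALL4 stayed level.

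FOXD3, a forkhead factor that acts largely as a repressor in pluripotent and neural crest cells, had the deepest loss of the 10. Its libraries gave 68.2, 34.7 and 34.5 CPM on day 0, 0.139, 0.147 and 0.235 on day 1, 0.0737, 0.377 and 0.247 on day 2, 0.394, 0.391 and 0.607 on day 3, and 0.569, 1.28 and 1.73 on day 4. The day 1 values rest on counts of 10, 10 and 26, against 5768, 3492 and 3624 on day 0. They lie above the level of 3 counts (0.0206 to 0.0548 CPM over the libraries). All counts in the table were even, so these small counts may stand for fewer sequenced molecules than they read. The FOXD3 calls against day 0 were kept with counts halved. Day 1 held 0.379% ± 0.117 of the day 0 mean, a log2 fold change of -8.01 ± 0.68 (edgeR adjusted p = 2.47e-06). The fold changes on days 2, 3 and 4 were -7.64 ± 0.67, -6.62 ± 0.63 and -5.27 ± 0.59, each called. Every day 4 library lay above every day 1 and day 2 library, and day 4 held 2.60% ± 1.28 of day 0. Day 4 was not tested against day 1 or day 2, and how many of all genes separated that way is not given here. Day 3 against day 2 gave 1.01 ± 0.54 (adjusted p = 0.420) and day 4 against day 3 gave 1.35 ± 0.52 (unadjusted p = 0.0196, adjusted 0.728), neither of them called. FOXD3 overlaps the antisense gene FOXD3-AS1, and whether counting used strand is not given, so reads of the pair cannot be separated here. POU5F1, L1TD1 and TERF1 also overlap genes on the other strand in that annotation.

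PRDM14, a zinc finger protein of the PR domain family that represses lineage genes, fell at once and stayed low. It gave 37.3, 56.6 and 75.3 CPM on day 0, 4.08, 3.61 and 3.91 on day 1, 3.33, 3.16 and 7.48 on day 2, 1.64, 4.78 and 11.5 on day 3, and 2.53, 4.51 and 9.12 on day 4. The 3 day 1 libraries were nearly equal, and on days 3 and 4 replicate 4 was the highest, although no later library came near the lowest of day 0. Relative to day 0 the log2 fold change was -3.87 ± 0.66 on day 1 (edgeR adjusted p = 0.00104), -3.60 ± 0.65 on day 2, -3.24 ± 0.64 on day 3 and -3.39 ± 0.64 on day 4, all called. Day 1 held 6.86% ± 0.417 of the day 0 mean and day 4 held 9.55% ± 5.99. Without replicate 4 of day 3 the day 3 value was -4.12, and without replicate 4 of day 4 the day 4 value was -3.98.

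DPPA4, which with its partner DPPA2 binds chromatin at developmental promoters, fell in the first day and went on to lower means on each later day. Its libraries gave 834, 906 and 500 CPM on day 0, 213, 195 and 181 on day 1, 164, 165 and 112 on day 2, 143, 130 and 125 on day 3, and 125, 108 and 104 on day 4. All 12 later libraries lay below the lowest day 0 library, replicate 4. Its log2 fold change was -1.93 ± 0.27 on day 1 (edgeR adjusted p = 2.15e-04) and -2.34 ± 0.27, -2.49 ± 0.28 and -2.73 ± 0.28 on the following days, all called. No step between consecutive days after the first was called for DPPA4. Its mean was 26.3% ± 2.10 of day 0 on day 1 and 15.1% ± 1.54 on day 4.

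TERF1, which encodes the shelterin protein TRF1 that binds double-stranded telomere repeats, fell about as far as PRDM14 on day 1. Its libraries gave 1704, 1530 and 501 CPM on day 0, 87.9, 90.7 and 79.0 on day 1, 135, 132 and 57.0 on day 2, 80.1, 74.5 and 52.6 on day 3, and 92.8, 38.3 and 61.2 on day 4. Replicate 4 of day 0 held much less than replicates 1 and 2, yet stayed far above every later library. The log2 fold change was -3.86 ± 0.49 on day 1 (edgeR adjusted p = 8.63e-05), -3.53 ± 0.48 on day 2, -4.17 ± 0.49 on day 3 and -4.28 ± 0.50 on day 4, all called. Day 1 held 6.89% ± 0.491 of the day 0 mean, and without replicate 4 of day 0 the log2 fold change was at its most negative over all single omissions, -4.21.

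LIN28A and LIN28B are paralogous RNA-binding proteins that block the maturation of let-7 microRNAs. LIN28A was called lower on 3 of the 4 days and LIN28B on none. LIN28A gave 2079, 2266 and 1511 CPM on day 0, 860, 1041 and 752 on day 1, 1169, 917 and 753 on day 2, 1323, 1171 and 1122 on day 3, and 1400, 798 and 773 on day 4. Every later library lay below all of day 0, but replicate 1 of day 4 came within reach of the lowest day 0 library. For LIN28A the log2 fold change was -1.14 ± 0.29 on day 1 (edgeR adjusted p = 0.0173), -1.05 ± 0.29 on day 2 (0.0174), -0.70 ± 0.29 on day 3 (0.0707, not called) and -0.98 ± 0.29 on day 4 (0.0158). The day 1 call was lost without replicate 2 of day 0 or replicate 1 or 4 of day 1, the day 2 call without replicate 2 or 4 of day 2, and the day 4 call without replicate 2 of day 0 or replicate 2 or 4 of day 4 (adjusted p 0.0512 to 0.0816 in these 8 fits). In a fit of only the days compared, day 2 (0.0695) and day 4 (0.0821) were not called, nor was day 2 with replicates 1 and 2 only (0.0511). On day 1, 45.3% ± 7.47 of the day 0 mean was left, and on day 3, 61.8% ± 5.39.

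LIN28B gave 443, 549 and 203 CPM on day 0, 295, 397 and 237 on day 1, 441, 380 and 176 on day 2, 496, 315 and 186 on day 3, and 336, 130 and 143 on day 4. The groups overlapped on every day, and replicate 4 was the lowest of its day from day 0 to day 3. The log2 fold changes were -0.36 ± 0.48, -0.26 ± 0.48, -0.26 ± 0.48 and -0.97 ± 0.48 on days 1 to 4 (edgeR adjusted p = 0.692, 0.747, 0.702 and 0.128), none called. On day 4 LIN28B was called without replicate 1 of day 4 (-1.47, adjusted p = 0.0317) and without replicate 4 of day 0 (-1.25, 0.0498). The mean on day 4 was 51.0% ± 28.9 of day 0. LIN28B overlaps LIN28B-AS1 on the other strand, with the same limit as for FOXD3.

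L1TD1, an RNA-binding protein derived from a LINE-1 element and abundant in human embryonic stem cells, was called lower from day 2 on. Its libraries gave 1235, 1979 and 1083 CPM on day 0, 466, 647 and 540 on day 1, 315, 388 and 294 on day 2, 79.1, 328 and 158 on day 3, and 92.6, 220 and 232 on day 4. The groups did not overlap with day 0 on any day, and replicate 1 was the lowest on days 3 and 4. From day 0 the log2 fold change was -1.38 ± 0.45 on day 1 (edgeR adjusted p = 0.0622, not called, against 0.0242 in DESeq2), -2.11 ± 0.46 on day 2 (0.00407), -2.93 ± 0.47 on day 3 (2.92e-04) and -2.98 ± 0.47 on day 4 (2.57e-04). The mean was 38.4% ± 6.35 of day 0 on day 1, 23.2% ± 3.42 on day 2 and 12.7% ± 5.39 on day 4. The day 3 fold change was -3.55 without replicate 2 of that day.

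**Figure D2:**
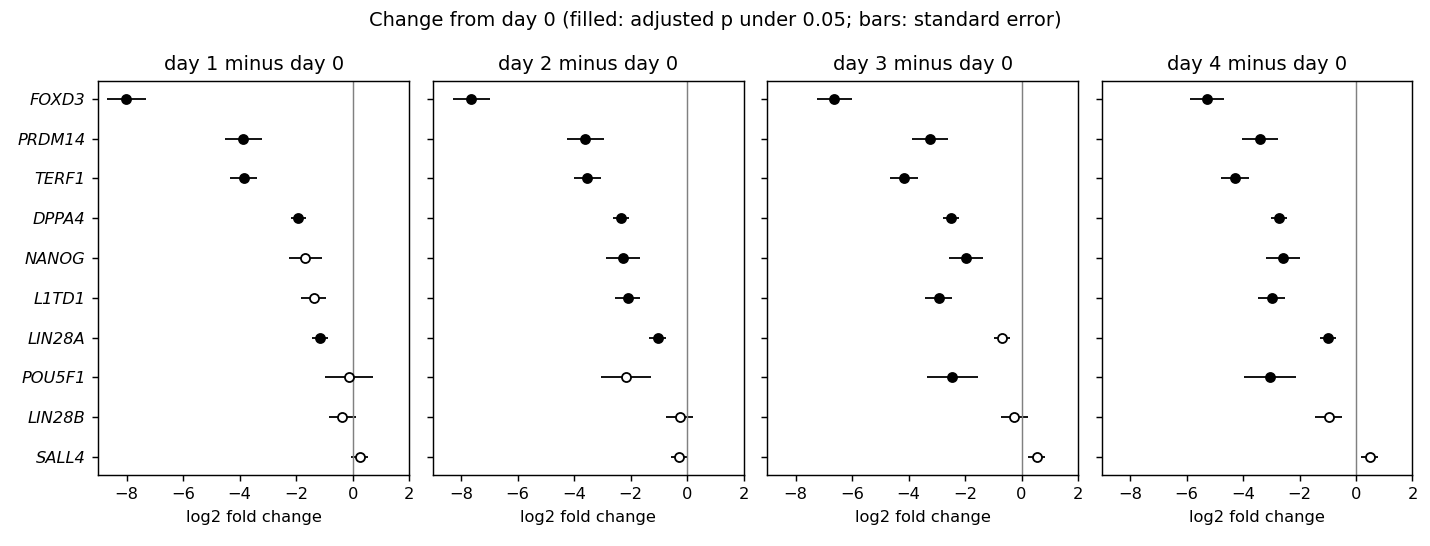
Each gene is drawn at its log2 fold change from day 0 (horizontal), with a panel per day, bars of 1 standard error and filled circles where the edgeR adjusted p was under 0.05. FOXD3 lies at -8.01 on day 1 and at -5.27 on day 4, while POU5F1, with the widest bars, lies at -0.12 on day 1 and at -3.04 on day 4.

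The order of loss was described by the day on which straight lines between the log2 day means passed 1 log2 unit below day 0, with no test. FOXD3 passed it after 0.12 days, PRDM14 and TERF1 after 0.26, DPPA4 after 0.52, NANOG after 0.60, L1TD1 after 0.72, LIN28A after 0.88 and POU5F1 after 1.43. SALL4 never passed it, and LIN28B reached -0.97 on day 4 without passing it. With each library left out in turn the crossing ran from 0.12 to 0.13 for FOXD3, 0.24 to 0.28 for both PRDM14 and TERF1, 0.47 to 0.57 for DPPA4, 0.53 to 0.70 for NANOG, 0.65 to 0.93 for L1TD1, 0.77 to 0.98 for LIN28A and 1.27 to 1.74 for POU5F1. The ranges of PRDM14 and TERF1 coincide, and those of DPPA4 and NANOG, of NANOG and L1TD1, and of L1TD1 and LIN28A overlap, so neighbours in the middle of the order cannot be ranked. FOXD3 came first and POU5F1 last of the genes that crossed with all libraries in, each outside the ranges of the others of these genes. Such ranges show the weight of single libraries and are not error intervals. No library was taken between day 0 and day 1, so the early crossings only express how deep the day 1 level was. LIN28B crossed, at 3.58 and 3.59 days, in 2 of the 15 omissions.

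**Figure D3:**
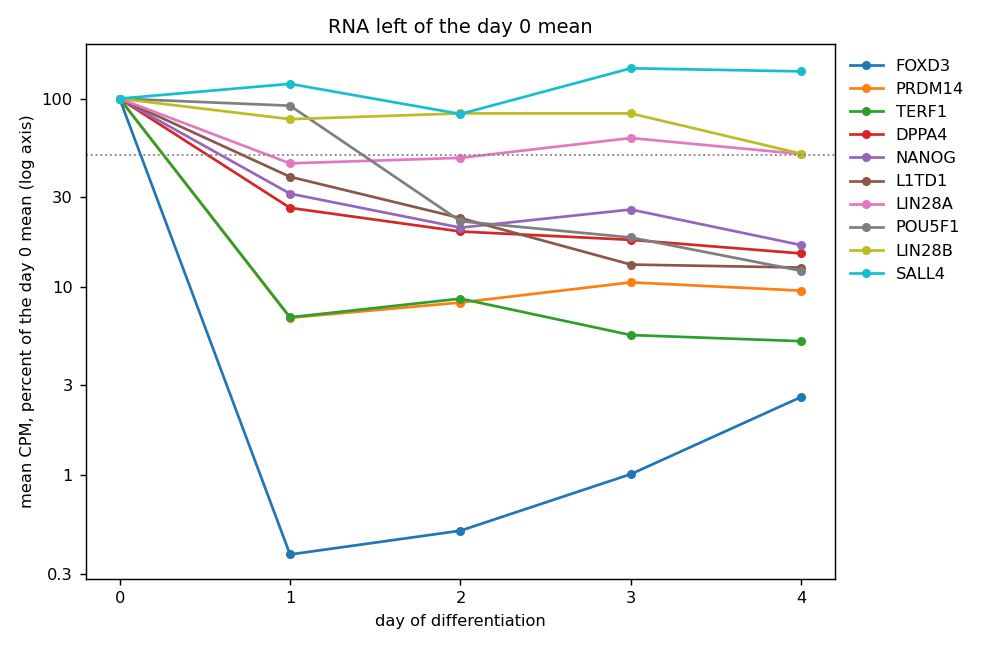
Mean CPM of each gene as a percent of its day 0 mean (vertical, log axis) against day (horizontal), with a dotted line at 1 log2 unit below day 0. The lines of FOXD3, PRDM14 and TERF1 drop to 0.379%, 6.86% and 6.89% by day 1, POU5F1 still stands at 91.7% then, and SALL4 ends at 139.5%.

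In the edgeR fit with a mean per day, no step between consecutive days after day 1 was called for any of the 10 genes. The day 2 mean of POU5F1 was nevertheless 100 CPM, against 412 on day 1. In day 2 against day 1 none of the 10 was called, where 3.34% of all genes were lower and 4.93% higher. In 2 of 25 alternative fits, named in the closing section, POU5F1 was called lower in that step. In day 3 against day 2 none was called, where 0.287% were lower and 0.661% higher, and in day 4 against day 3 none was called, where both shares were 0.0%. At an unadjusted p under 0.05, 1 of the 10 was lower in day 2 against day 1 (POU5F1), 1 was higher in day 3 against day 2 (SALL4) and 1 was higher in day 4 against day 3 (FOXD3). For day 4 against day 3, 570 genes were lower and 504 higher at that unadjusted level, and DESeq2 called 39 lower and 27 higher. DESeq2 called no member in that step or in day 3 against day 2. All 3 libraries of a day lay below all 3 of day 0 for 7 of the 10 genes on day 1 and for 8 on each of days 2, 3 and 4, against 14.1%, 16.4%, 19.6% and 19.5% of all genes tested.

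Ratios within a library, which carry no library size, asked whether related genes were lost at a different pace. PRDM14 over POU5F1, on the log2 scale of CPM and not corrected for gene length, was -6.88, -6.49 and -6.78 on day 1, against -3.10, -2.21 and -3.34 on day 0, so that all day 1 libraries lay below all of day 0. By day 4 it was -2.73, -2.63 and -3.71, which overlaps day 0. Over days 1 to 4 its mean difference from day 0 was -1.43 (-4.31 in the 12 later libraries and -2.88 in the 3 of day 0), with an exact two-sided permutation p of 0.132 (0.198 adjusted over 3 ratios). Over days 1 and 2 alone the difference was -2.52, with an exact p of 0.0238, the smallest that 84 splits allow here, and 0.0714 adjusted. NANOG over POU5F1 was -2.92, -2.51 and -3.34 on day 1, against -0.88, -0.19 and -2.70 on day 0. By day 4 it was -0.42, -0.67 and -1.07, inside the day 0 range. Over days 1 to 4 its difference was -0.04 (exact permutation p = 0.927, adjusted 0.927), and over days 1 and 2 it was -0.725 (0.548, adjusted 0.548). LIN28B over LIN28A was -1.54, -1.39 and -1.66 on day 1, against -2.23, -2.04 and -2.90 on day 0. By day 4 this ratio was -2.06, -2.61 and -2.44, inside the day 0 range. Its difference over days 1 to 4 was 0.53 (exact permutation p = 0.127, adjusted 0.198), and over days 1 and 2 it was 0.83 (0.0476, adjusted 0.0714). None of the 3 ratios passed the test after adjustment.

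The libraries of a day differed in which of the 10 genes they held most of. On day 0 replicate 4 was the lowest of the 3 for 7 genes (NANOG, FOXD3, DPPA4, LIN28A, LIN28B, L1TD1 and TERF1) and the highest for the other 3 (POU5F1, PRDM14 and SALL4). On day 4 replicate 1 was lowest for POU5F1, NANOG, PRDM14, FOXD3 and L1TD1 and highest for DPPA4, LIN28A, LIN28B, TERF1 and SALL4. The libraries numbered 1 of days 3 and 4 stood apart in the sum of their endoderm markers: 10 definitive endoderm genes summed to 1531 CPM on day 3 and 1401 on day 4 in replicate 1, against 3456 to 6742 in the other libraries of those days. CER1 made up much of that gap. It gave 478 CPM on day 3 and 397 on day 4 in replicate 1, against 1867 to 4478 in the others. LEFTY1, GATA6, CXCR4 and GATA4 were also lowest in replicate 1 on both days. The rest of the list did not follow on day 3. FOXA2 was then highest in replicate 1 (252 CPM, against 116 and 48.2), as was FOXA1. SOX17, KIT and HHEX lay between the other 2 libraries. Their 10 primitive streak genes summed to 256 and 266 CPM, against 1087 to 1471, and their 10 mesoderm genes to 541 and 282 CPM, against 76.8 to 242. The part of these differences in the results was not tested directly. Without both libraries, POU5F1 was no longer called on day 3 (-1.96, adjusted p = 0.125) or day 4 (-2.54, 0.0502) in edgeR, and LIN28B was called on day 4 (-1.49, 0.0259). All 4 of FOXD3, PRDM14, TERF1 and DPPA4 stayed called on each day in that fit. The coefficient of variation of the 10 genes on day 0 lay between 20.1% for LIN28A and 61.5% for POU5F1, where the median over the genes averaging 10 CPM or more was 36.0%.

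Over the series, marker lists moved as follows. The summed level of 10 primitive streak genes was between 2716 and 3239 CPM on day 1, against 10.4 to 17.4 on day 0, and all 10 were higher on every day. The 10 definitive endoderm genes summed to between 1401 and 6742 CPM on day 4, against 69.7 to 75.3 on day 0, and all 10 were higher on days 3 and 4. None of these 20 genes was at 0 in any library. The 10 mesoderm genes summed to 177 to 205 CPM on day 1, against 5.77 to 11.6 on day 0. They summed to 203 to 447 CPM on day 2, 111 to 541 on day 3 and 76.8 to 282 on day 4. On day 1, 9 of them were higher and none lower, and on day 4, 7 were higher and none lower. The 10 trophoblast and amnion genes summed to 70.9 to 117 CPM on day 1, against 5.12 to 8.14 on day 0, of which CDX2 alone gave 98.3, 75.6 and 52.8 CPM on day 1. Of their 7 tested genes 4 were higher on day 1, with ELF5 at 0 in all 15 libraries, CGB5 in 14 and CGA in 12. This list summed to 11.9 to 36.9 CPM on day 2 and 61.9 to 135 on day 4, when 5 were higher and 1 lower. The day 4 mean was 54.6 CPM for GATA3 and 1.03 for CDX2. ISL1 is also in the mesoderm list, and TP63 in the ectoderm list. The 10 neural and surface ectoderm genes summed to 3.61 to 8.44 CPM on day 1, against 47.0 to 93.0 on day 0. On day 4 they summed to 8.05 to 140 CPM, and of the 8 tested 2 were higher and 3 lower. The sum joins opposite moves. From day 0 to day 4 mean CPM fell from 33.8 to 1.90 for POU3F1, 15.07 to 1.82 for SOX3 and 14.96 to 0.756 for HESX1. It rose from 1.61 to 26.8 for PAX6 and 0.737 to 32.9 for LHX2, with replicate 2 of day 4 highest (60.45 and 73.93 CPM). SOX1 was at 0 in 10 libraries. The part of other cell types in the levels of the 10 genes was not tested.

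Beyond the 10, a list of 30 other pluripotency genes had 29 that were tested. On day 1, 13 of them were lower and none higher, with a median log2 fold change of -1.41, and on day 4, 15 were lower and 4 higher (-1.95). SOX2, the partner of POU5F1 on DNA, gave 1.69, 0.617 and 1.14 CPM on day 1, against 313, 157 and 132 on day 0, a log2 fold change of -7.45 ± 0.70 (edgeR adjusted p = 5.63e-06). In the same libraries POU5F1 lay inside its day 0 range. SOX2 then gave 5.41, 5.65 and 4.25 CPM on day 2, 4.38, 3.81 and 11.4 on day 3, and 6.09, 3.75 and 14.7 on day 4, all far below day 0. Without replicate 4 of day 4 its log2 ratio of means was -5.35, against -4.62 with all libraries. PODXL, a cell surface sialomucin used as a stem cell marker, fell by 3.86 on the log2 scale on day 1 and was 1.24 ± 0.44 above day 0 on day 4 (adjusted p = 0.0387). DPPA3 fell by 3.80 on day 1 (adjusted p = 0.00670) and was not called on day 4. Its log2 ratio of means on day 1 was -2.66 without replicate 1 of day 0. POLR3G, a subunit of RNA polymerase III, and FGF2, the growth factor in E8 medium, fell by 4.68 and 4.24 on day 4. DPPA5, close to the floor with counts of 56, 16 and 12 on day 0 and none on day 1, was called lower, and no fold change is given for it.

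Lists of genes that work with the 10 are to be read against the 4.88% of all genes that were lower and the 5.49% that were higher on day 1, and against 16.2% and 18.0% on day 4. Of 14 SALL family and NuRD subunit genes, 1 was higher and 1 lower on day 1. SALL2 fell by 2.58 on the log2 scale on day 1 and by 1.77 on day 4, SALL3 fell by 1.66 on day 4, and the NuRD subunit MTA2 was higher by 1.28 on day 1 and 0.86 on day 4. GATAD2B was higher by 0.84 on day 4, and in all 3 were higher and 2 lower on that day, beside the SALL4 values that passed no test. Of 7 genes for PRDM14 corepressors and the Polycomb complex PRC2, JARID2 fell by 2.52 on day 1 (edgeR adjusted p = 3.83e-05) and by 1.33 on day 4. EZH2, the methyltransferase of the complex, fell by 1.11 on day 4, and CBFA2T2, which binds PRDM14 in mouse cells, was 1.53 higher on day 4.

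Of 14 genes of the LIN28 and let-7 pathway, 1 was higher and 1 lower on day 1, and 3 were higher and 4 lower on day 4. ARID3A, a DNA-binding protein and known let-7 target, was higher by 1.79 in log2 fold change on day 1 and by 1.70 on day 4. IGF2BP3, an RNA-binding protein that let-7 also targets, fell by 1.63 on day 1 and by 1.02 on day 4. ZCCHC11, the uridylyl transferase that LIN28A recruits to let-7 precursors, was 1.95 ± 0.38 higher on day 4 (edgeR adjusted p = 0.00115), and DGCR8, a part of the microprocessor, fell by 0.93. The microRNAs themselves were not measured in these libraries.

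Of 13 shelterin and telomerase genes other than TERF1, none was called in either direction on day 1, where few calls would be found among 13 genes at the shares of all genes given above. On day 4, 3 were higher and 5 lower. TINF2, the shelterin subunit that bridges TRF1 and TRF2, was 1.75 ± 0.27 higher (edgeR adjusted p = 2.30e-04). The telomerase gene TERT fell by 1.95 and the H/ACA protein gene NOP10 by 1.55, but 1 day 0 library carried much of each fall. NOP10 gave 62.5, 96.4 and 105.9 CPM on day 4, against 527, 98.0 and 151 on day 0, so the groups overlapped, and the log2 ratio of day means was -0.50 without replicate 1 of day 0. TERT gave 1.198, 1.62 and 2.15 CPM on day 4, against 2.13, 4.65 and 12.4 on day 0, and its ratio was -1.03 without replicate 4 of day 0. TERF2, the paralog of TERF1, was 0.75 ± 0.27 higher on day 4 (adjusted p = 0.0396), against -4.28 for TERF1. In the FOXD family 2 genes other than FOXD3 were tested. FOXD2 was called higher on days 1 and 4, with counts of 18, 38 and 40 on day 1 and 64, 44 and 40 on day 4, against 2, 6 and 0 on day 0. FOXD1 was not called.

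Likeness among the 10 genes was measured as Pearson's r of log2(CPM + 0.5) over the 15 libraries, as a description. The libraries of a day share a treatment, and the 3 of day 0 stand apart for most of these genes, so r largely follows how a gene changed from day 0. TERF1 and DPPA4 were the most alike (0.97), and PRDM14 and FOXD3 followed (0.91). POU5F1 was nearest to NANOG (0.76) and at 0.07 with LIN28A. LIN28B was nearest to LIN28A (0.65), and SALL4 had a negative r with the other 9 genes, between -0.54 with L1TD1 and -0.08 with POU5F1.

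**Figure D4:**
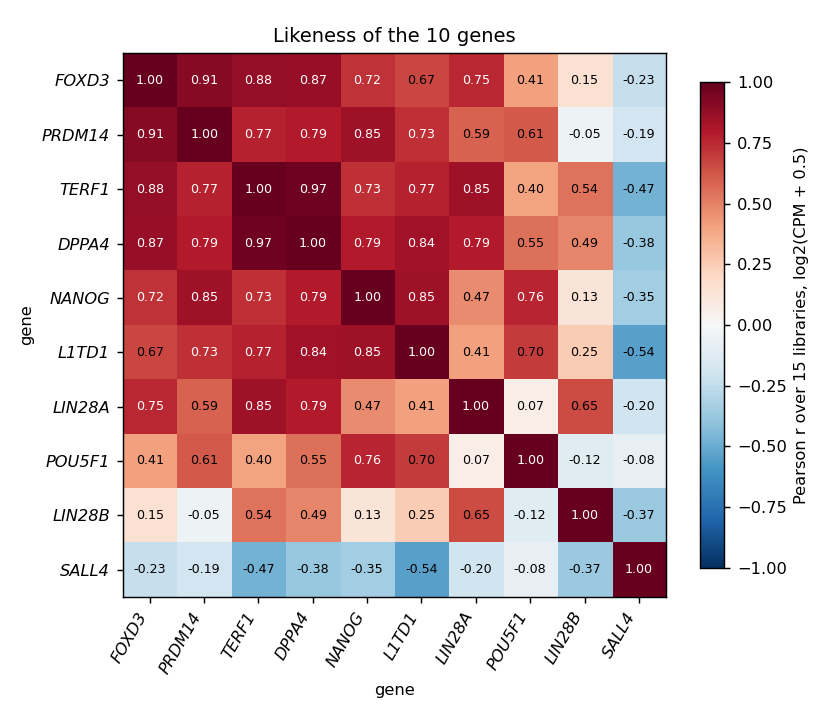
Pearson's r of log2(CPM + 0.5) over 15 libraries between each pair of the 10 genes, red for positive and blue for negative. A block of high values joins FOXD3, PRDM14, TERF1 and DPPA4, with 0.97 for TERF1 and DPPA4, and the SALL4 row is negative throughout.

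Among all genes tested, the 3 most like each of the 10 were taken by the same measure. For POU5F1 they were ACP5 (0.979), NOP16 (0.967) and DTD1 (0.967), and NOP16 had means of 34.0, 35.1, 8.61, 7.22 and 7.12 CPM on days 0 to 4. For NANOG they were CHST7 (0.908), MYC (0.906) and ESRG (0.903). MYC, the growth-promoting transcription factor, had means of 110.5, 52.9, 46.6, 39.5 and 21.7 CPM, and ESRG, a long noncoding RNA of human embryonic stem cells, had 714, 154, 60.1, 80.4 and 71.2. For PRDM14 they were SLA, MX1 and KRT7 (0.944 to 0.936), and for FOXD3 SYNPO2, CYP2B6 and LOC255167 (0.977 to 0.969), most of which were at low levels. For DPPA4 they were SERTM1, CR1 and SLC38A4 (0.985 to 0.982). For TERF1 they were CD24, SAMHD1 and TOX (0.981 to 0.975), and the surface protein gene CD24 had means of 2451, 359, 415, 210 and 226 CPM. For LIN28A they were SIRT1, AKAP7 and CXCL5 (0.928 to 0.923), for LIN28B RHOQ, ZNF569 and TRIM37 (0.972 to 0.966), for L1TD1 SLTM, LOC100507421 and ARPM1 (0.956 to 0.924), and for SALL4 GHDC, FAM102A and ASMTL (0.900 to 0.884). None of these 30 genes was one of the 10.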

How the data were processed

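RNA of H9 cells was sequenced in bulk, in 15 libraries, 3 for each of 5 days. Per the labels' protocols, RNA was column-purified from Trizol, polyA RNA was selected and directional libraries were made. TopHat2 2.0.14 and human build hg19 were used, per the submitters' processing notes; for the program that counted reads, its annotation and its strand setting, nothing is stated (not given in the sources used here). The authors deposited whole-number counts per gene symbol and library, not normalized, and library columns were matched to samples by title. Of 23398 entries, 52 repeated a symbol: 44 identical ones were dropped and 8 summed. All counts were even, so small counts may stand for fewer sequenced molecules than they read, and 2605 symbols had none. Totals ran from 54723184 to 145857940 per library. Between libraries of a day, chi-square over genes divided by its degrees of freedom was 42.9 to 624, so none was taken for a copy.

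edgeR 4.0.16 (R 4.3.3, limma 3.58.1) was fitted to the deposited counts of all 15 libraries with TMM scaling, genes kept by filterByExpr by day and a mean per day; the biological coefficient of variation was 45.6%. The script was checked on simulated counts. Standard errors were taken from the log2 fold change and its F statistic. CPM used TMM-scaled library sizes. Ratios were tested with exact permutation tests, days 1 to 4 against day 0 (455 splits), in scipy 1.17.1. Alternatives were DESeq2 1.42.0, its size factors in edgeR, library totals alone, other filters, the replicate number as a block, only the days compared and each library left out. Added after seeing the data were counts halved, replicates 1 and 2 only, and days 3 and 4 without replicate 1. The members, gene lists and the rule for named genes (all 10 members; the 3 genes most like each; per list the called genes of largest change on day 1 or 4) were chosen with earlier results of these data known. No protein sequences were used here.

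Promoters are of GRCh38.p14, another build than the counts.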

Additional observations from a re-analysis of the deposited data

How the results depend on the processing

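The 27 calls of single genes against day 0 were refitted under 675 alternatives; 639 kept direction and call, 36 lost the call (18 for POU5F1, 11 for LIN28A, 7 for NANOG) and 0 reversed. The joint test of the days called 8 genes, and 6 to 8 with a library left out. The calls of FOXD3, PRDM14, TERF1, DPPA4 and L1TD1 against day 0 were kept in every alternative. With the replicate number as a block, and with replicates 1 and 2 only, 1 gene was lower in day 2 against day 1, POU5F1 (adjusted p = 0.00151 and 7.58e-04), against 0 otherwise; the block also called NANOG and L1TD1 on day 1, POU5F1 on day 2 (0.00109), LIN28A on day 3 and LIN28B on day 4 (0.0245). The labels do not say what a number marks. The numbers were not taken as pairs, since 21 of 30 same-number correlations, and not all, were over 0.1. Yet 10 of 15 libraries correlated best with their own number, and the median was 0.226 for the same number and -0.152 for another. That is a hint of shared deviations, which the main fit with a mean per day leaves out. POU5F1 in day 1 against day 0 turned to 0.23 with the block and 0.47 with replicates 1 and 2 only, and ran from -0.41 to 0.53 with a library left out. Left-out libraries also turned LIN28B on day 2 (-0.535 to 0.048) and day 3 (-0.633 to 0.068), SALL4 on day 2 (-0.505 to 0.024) and the NANOG over POU5F1 ratio (-0.76 to 0.49), none of them called; the cause was not tested. Counts over all genes moved by over 1.5 times under some settings: day 1 against day 0 gave 850 lower and 956 higher, 1305 and 1608 with the block, 1447 lower in DESeq2, and 380 to 1155 lower and 624 to 1484 higher with a library left out. With only the days compared, 1632 and 1798 were lower on days 3 and 4, against 2785 and 2811. Day 2 against day 1 gave 582 lower and 857 higher, 1053 and 1405 in DESeq2, 1168 and 1298 with the block, and 1308 and 1506 with only the days compared. Day 3 against day 2 gave 50 and 115, 340 and 619 in DESeq2, 219 and 371 with the block and 0 and 0 with only the days compared; without replicate 1 of days 3 and 4 it gave 11 and 57, and with replicates 1 and 2 only 32 were lower. Scaling moved the median of all genes by less than 0.1. Depth limited FOXD3 most, with 8 to 58 counts a library on days 1 to 3.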
